A study of Mus musculus with 11 samples.

Results

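The genes described here are the glutathione S-transferases of mouse liver: *Gsta2*, *Gsta3* and *Gsta4* of the alpha class, *Gstm1*, *Gstm2*, *Gstm3* and *Gstm4* of the mu class, *Gstp1* of the pi class, *Gstt1* of the theta class and *Gstz1* of the zeta class. They were taken by gene symbol from a table of read counts with 13669 genes, which held all 10 members, and all 10 had enough reads to be tested. The livers came from 11 male C57BL/6J mice of wild-type genotype on regular chow that received a recombinant adeno-associated virus with a liver-specific promoter by tail vein. In 6 mice the virus encoded a tough decoy, an RNA that captures *miR-379* as well as *miR-541* (AAV-TuD), and in 5 mice a negative control sequence (AAV-NC). The mice arrived at 6 weeks of age, were acclimated for 4 weeks and were killed after a fast of 5 to 6 h, between 4 weeks and 3 months after the virus, with the time of each animal not given. The comparison asks how liver transcripts differ when both miRNAs are targeted together. The study describes the decoy as also lowering the host transcripts and other miRNAs of the same cluster, so the groups do not differ in these miRNAs alone. All mice carried a virus, so no untreated liver stands beside them, and the miRNAs themselves were not analysed here.

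Glutathione S-transferases join the tripeptide glutathione to electrophilic compounds, among them drug metabolites, epoxides and products of lipid peroxidation. The conjugates are pumped out of the cell by transporters of the ABCC family and trimmed to mercapturates. The cytosolic enzymes are grouped by sequence into classes named with Greek letters, work as dimers and are abundant in hepatocytes. Many of their genes are targets of the transcription factor NRF2, encoded by *Nfe2l2*, which binds antioxidant response elements.

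The decoy was directed at the mature miRNAs shown here 5′ to 3′ as RefSeq gives them, with the seed (bases 2 to 8) in capitals. Their 3′ UTR match in each gene was searched in the longest annotated UTR (GENCODE M21, GRCm38), on the transcribed strand. The seeds of these miRNAs differ, so they belong to different seed groups, and seeds of other miRNAs of the cluster were not searched.

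mmu-miR-379-5p: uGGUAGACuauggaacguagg

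mmu-miR-541-5p: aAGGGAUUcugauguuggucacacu

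A match to the *miR-379* seed (GTCTACC) was found in 5.72% and a match to the *miR-541* seed (AATCCCT) in 9.51% of the 10935 3′ UTRs searched. Of the 10 members, none held the former and 1, *Gstm4*, held the latter. The *Gstm4* match starts at base 776 of its 828-base UTR, on the minus strand, and *Gstm7*, a mu class gene outside the member list, also held a match in its UTR at base 195 of 557, on the same strand. Both are shown with the bases around them as DNA, and the capitals mark the match.

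Gstm4 UTR site, chr3:108040443-108040471: ccatcttggttAATCCCTcctctttgtga

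Gstm7 UTR site, chr3:107926679-107926707: cagtctcttaaAATCCCTaacagttcctt

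These are matches of letters, and binding was not measured. The level of *Gstm4* is given with the mu class, and *Gstm7* had 40.6 ± 5.50 CPM (mean ± SD of 5 AAV-NC livers; reads scaled to the size of the library) and 35.2 ± 1.09 CPM in 6 AAV-TuD livers, a log2 fold change of -0.21 that did not pass the test (adjusted p = 0.141).

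The libraries held between 8148531 and 12043959 reads counted to genes, of which 0.319% to 0.539% fell on the 10 members. They are 3′ tag counts, in which the number of reads does not grow with the length of the transcript. CPM values of different genes can thus be set side by side, except where near-identical copies may share reads, as for *Gstp1* and *Gsta2*. CPM here uses library sizes scaled by trimmed mean of M-values (TMM), and log2 fold changes are AAV-TuD minus AAV-NC. The tissue label was checked with 10 hepatocyte markers, whose summed level was 45523 to 51152 CPM with AAV-NC and 51506 to 58649 with AAV-TuD, without overlap. The highest of them, *Alb*, had 21096 ± 2304 and 28044 ± 2727 CPM, the median log2 fold change of the 10 was -0.15, and 1 was called, *Apob*, which fell. Major urinary protein (Mup) transcripts took 13.8% to 38.6% of reads with AAV-NC and 8.09% to 30.9% with AAV-TuD, and TMM factors ran from 0.667 to 1.24. In a bulk liver, fewer cells of a type and less RNA per cell cannot be told apart. Each library is labelled as 1 liver. The edgeR p-values weigh the difference between groups against the variation between livers, which is estimated with information from all genes tested.

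*Gstp1* had the highest level with AAV-NC, at 1879 ± 482 CPM (n = 5), followed by *Gstm1* (1056 ± 205) and *Gsta3* (1003 ± 48.6). The places of *Gstp1* and *Gsta2* in this order are uncertain, since near-identical copies may share their reads. The ranges of *Gstm1* and *Gsta3* overlapped, so these neighbours were not separated by the spread between livers, and the lowest *Gstp1* liver (1284 CPM) lay below the highest *Gstm1* liver (1351 CPM). *Gstz1* followed at 239 CPM (213 to 254), apart from the genes above and below it. *Gstt1* (97.0 ± 23.7), *Gsta2* (94.6 ± 29.7) and *Gsta4* (86.5 ± 12.7) overlapped with each other. Below the range of *Gsta4*, *Gstm2* (48.0 ± 11.2), *Gstm3* (43.5 ± 5.04) and *Gstm4* (28.1 ± 5.26) were the lowest, and the range of each overlapped with that of the next except between *Gstm3* and *Gstm4*. With AAV-TuD, *Gsta3* stood above *Gstm1* (848 ± 25.7 against 769 ± 242 CPM, n = 6) and *Gstm3* above *Gstt1* (107 ± 78.5 against 90.7 ± 10.6), in both cases with overlapping ranges.

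**Figure D1:**
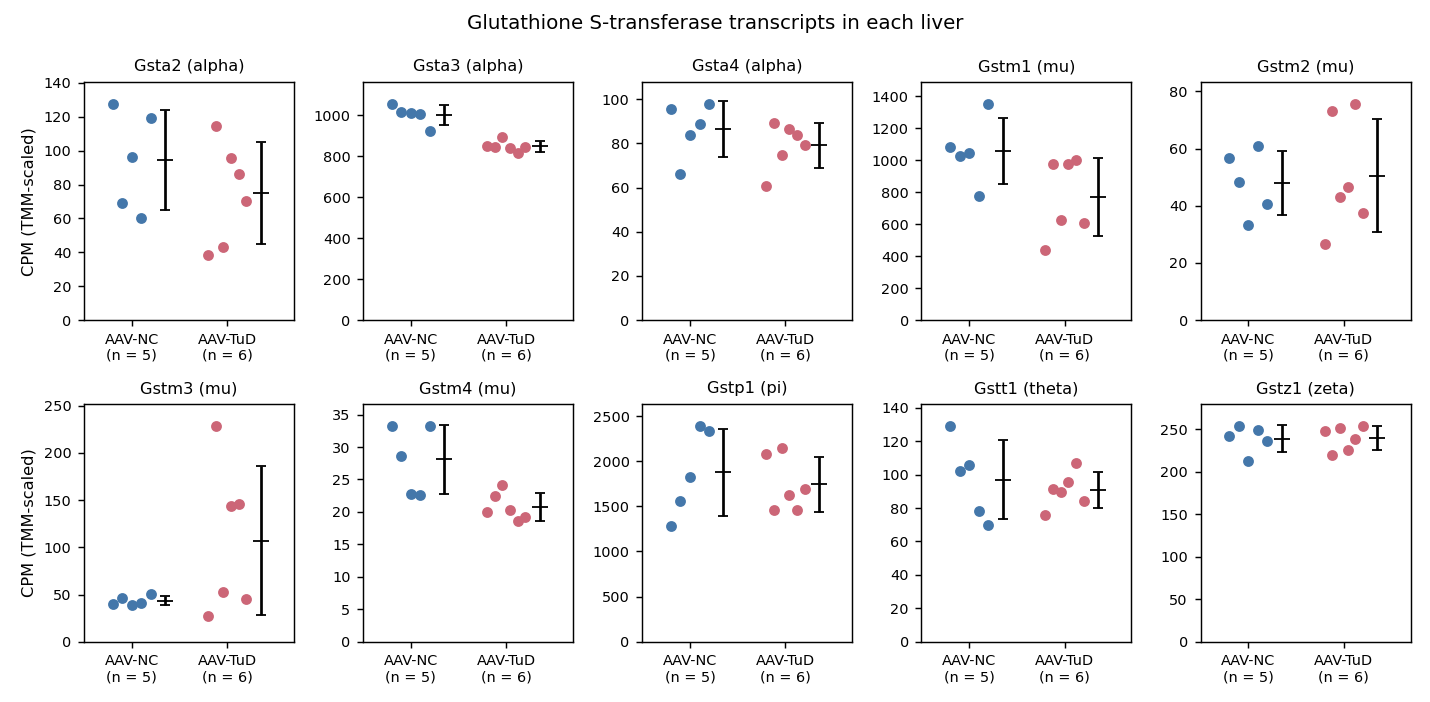
CPM (TMM-scaled, linear axes from 0) of the 10 members in each liver, blue for AAV-NC (n = 5) and red for AAV-TuD (n = 6), with the mean and SD in black. *Gsta3* is the only member whose groups do not overlap (923 to 1056 against 815 to 894), and *Gstm3* reaches 229 CPM in 1 AAV-TuD liver while every AAV-NC liver is between 39.1 and 50.8.

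Of the 10 members, 2 fell with AAV-TuD (*Gsta3* and *Gstm4*), none rose and 8 did not pass the quasi-likelihood test of edgeR at an adjusted p under 0.05. Over all 13334 genes tested, 4.33% fell, 7.24% rose and 11.6% were called in either direction, that is, 966 genes rose and 577 fell with TMM, and 1386 rose and 71 fell with library size alone as the scale. At an unadjusted p under 0.05, 3 members were lower (*Gsta3*, *Gstm4* and *Gstm1*) and 1 was higher (*Gstm3*), and DESeq2 and limma-voom each called 2 lower and none higher. The groups did not overlap in 1 of the 10 members, against 7.39% of all genes. The median log2 fold change of the members was -0.12 and that of all genes -0.00. On the latter scale, the median of all genes moved to 0.23 and that of the members to 0.12. There neither *Gsta3* (log2 fold change -0.01, adjusted p = 0.974) nor *Gstm4* (-0.23, adjusted p = 0.48) was called, and relative to the median of all genes they stood at -0.24 and -0.46, beside -0.24 and -0.43 with TMM.

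**Figure D2:**
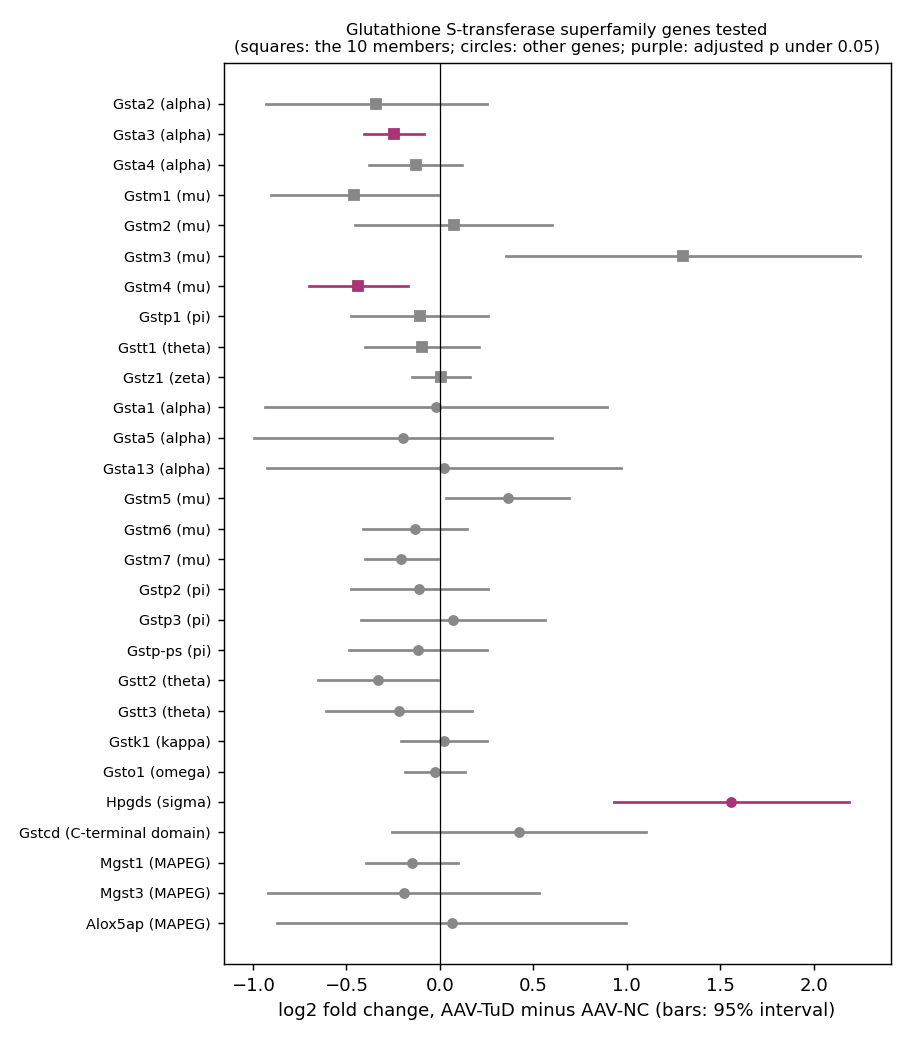
Log2 fold change (AAV-TuD minus AAV-NC) with its 95% interval for the 10 members (squares) and 18 other genes of the superfamily (circles), with those at an adjusted p under 0.05 in purple. *Gsta3* and *Gstm4* lie below 0, *Hpgds* lies above it at 1.56, and the interval of *Gstz1* (-0.15 to 0.16) is the narrowest among the members.

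*Gsta3* (ENSMUSG00000025934, chr1:21240589-21265661, plus strand) encodes the alpha enzyme known in mice for its high activity toward the epoxide of aflatoxin B1. With AAV-NC its level was 1056, 1017, 1011, 1008 and 923 CPM, and with AAV-TuD it ran from 815 through a median of 845 to 894 CPM. Every AAV-TuD liver was below every AAV-NC liver, and the coefficient of variation was 4.84% and 3.03%. The log2 fold change was -0.24 (SE 0.07, edgeR adjusted p = 0.0373), and the exact permutation test of its log2 CPM gave a two-sided p of 0.00216, the smallest that the possible assignments of 11 livers allow. The call was close to the threshold. It was lost when any 1 of AAV-NC 1, 2, 6 or 7 or of AAV-TuD 4, 9, 10 or 11 was left out, with adjusted p between 0.0611 and 0.0855 and log2 fold changes between -0.24 and -0.22, and without the 3 livers with the largest Mup share (-0.26, adjusted p = 0.0646). An antisense gene, *Gm28836*, overlaps *Gsta3* and had 1326 reads over all livers. Since the strand setting of the counting was not given in the sources used here, reads of the pair may not be fully separated.

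The other alpha class members did not pass the test. *Gsta2* (chr9:78331018-78355788, minus strand), an enzyme with peroxidase activity toward lipid hydroperoxides, had 128, 69.4, 96.4, 60.2 and 119 CPM with AAV-NC, and 38.2 to 115 CPM with a median of 78.3 with AAV-TuD. The livers were widely spread within both groups, which overlapped (log2 fold change -0.34, SE 0.26, 95% interval -0.93 to 0.25, adjusted p = 0.447). *Gsta4* (chr9:78182774-78209349, plus strand), which conjugates the lipid peroxidation product 4-hydroxynonenal, had 86.5 ± 12.7 and 79.1 ± 10.3 CPM (log2 fold change -0.13, interval -0.38 to 0.12, adjusted p = 0.505), a difference that turned to 0.13 with library size alone. The last 300 bases of *Gsta2* were compared with whole transcripts of other genes. They were 97.3% identical to a stretch of *Gsta5*, 94.6% identical over 298 bases to *Gsta1* and 94.3% over 297 bases to *Gsta13*. The counts of these genes may thus share reads and are uncertain. *Gsta3* and *Gsta4* had no transcript of another gene at 90% identity or more over at least 100 bases of their 3′ ends. Summed over the 3 members, the alpha class had 1184 ± 56.4 CPM with AAV-NC (1141 to 1279) and 1002 ± 32.8 with AAV-TuD (951 to 1047), a ratio of 0.846 that rested mainly on *Gsta3* and was 0.996 with library size alone.

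*Gstm4* (ENSMUSG00000027890, chr3:108040408-108044894, minus strand), the lowest of the mu class members and the one with the *miR-541* seed match printed above, had 33.2, 28.6, 22.8, 22.7 and 33.3 CPM with AAV-NC. With AAV-TuD it had 18.5 to 24.2 CPM with a median of 20.2. In 5 of 6 AAV-TuD livers the level was below that of every AAV-NC liver, and AAV-TuD 5 lay within the AAV-NC range. It fell by 0.44 on the log2 scale (SE 0.12, edgeR adjusted p = 0.0247; exact permutation test, two-sided p = 0.0152). The call was lost without AAV-NC 1 (adjusted p = 0.0694), AAV-NC 8 (0.0663), AAV-TuD 9 (0.0512), AAV-TuD 10 (0.0581) or AAV-TuD 11 (0.0548), and was kept without the 3 livers with the largest Mup share (log2 fold change -0.55, adjusted p = 0.0162).

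*Gstm3* (ENSMUSG00000004038, chr3:107963696-107969283, minus strand) showed the widest spread. It had 39.6, 46.6, 39.1, 41.4 and 50.8 CPM in the AAV-NC livers, and 27.1, 229, 53.0, 143, 146 and 44.9 CPM in AAV-TuD 3, 4, 5, 9, 10 and 11. Thus 4 AAV-TuD livers were above all AAV-NC livers, 3 of them by a wide margin, and AAV-TuD 3 was below all of them. The coefficient of variation was 11.6% with AAV-NC and 73.2% with AAV-TuD. The log2 fold change of 1.30 (SE 0.42) did not pass the test (edgeR adjusted p = 0.0556; exact permutation test, two-sided p = 0.141). The adjusted p was 0.00992 without AAV-TuD 3, 0.0412 without AAV-TuD 5, 0.0348 without AAV-TuD 11, 0.002 with library size alone (log2 fold change 1.63) and 0.00851 without the 3 livers with the largest Mup share. Without AAV-TuD 4 the log2 fold change was 0.94 (adjusted p = 0.143).

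The AAV-TuD livers with high *Gstm3* (4, 9 and 10) had Mup shares of 8.09%, 10.01% and 10.2%, the lowest of all livers, and the other AAV-TuD livers (3, 5 and 11) had 30.9%, 28.4% and 15.3%. In AAV-NC 8, 1, 6, 2 and 7 the Mup shares were 13.8%, 17.0%, 18.1%, 18.7% and 38.6%. The *Gstm3* levels of these livers, in the same order, were 50.8, 39.6, 39.1, 46.6 and 41.4 CPM. The part of this fraction in the *Gstm3* values was not tested. The last 300 bases of *Gstm3* were 90.6% identical to *Gstm1* over 149 bases. The ratio of these genes, chosen after their values were seen, does not depend on the scaling of the library: *Gstm3* had 3.67 to 5.35 reads per 100 *Gstm1* reads with AAV-NC and 6.20 to 23.5 with AAV-TuD, without overlap.

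*Gstm1* (chr3:108012255-108017973, minus strand), the main mu enzyme of mouse liver, had 1080, 1028, 1045, 775 and 1351 CPM with AAV-NC. With AAV-TuD it had 438 to 999 CPM with a median of 799, so that 3 of 6 AAV-TuD livers were below every AAV-NC liver. They were AAV-TuD 3, 5 and 11, the livers that were also low in *Gstm3* for their group and had its largest Mup shares. Among AAV-NC livers, the lowest *Gstm1* level (775 CPM) was in AAV-NC 7, with the largest Mup share (38.6%). The highest level (1351 CPM) was in AAV-NC 8, with the smallest share (13.8%). The part of the Mup fraction in the *Gstm1* values was not tested. The log2 fold change of -0.46 (SE 0.20, interval -0.90 to -0.01) did not pass the test after adjustment (adjusted p = 0.151; exact permutation test, two-sided p = 0.0779). *Gstm2* (chr3:107981702-107986453, minus strand) had 48.0 ± 11.2 CPM in AAV-NC livers and 50.4 ± 19.8 in AAV-TuD livers (log2 fold change 0.07, interval -0.45 to 0.60, adjusted p = 0.885). The mu class thus held a called decrease, a large difference upward that was not called, and 2 members without a call. Its sum was 1175 ± 206 CPM in AAV-NC livers and 947 ± 332 in AAV-TuD livers, with overlap (900 to 1476 against 511 to 1298).

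**Figure D3:**
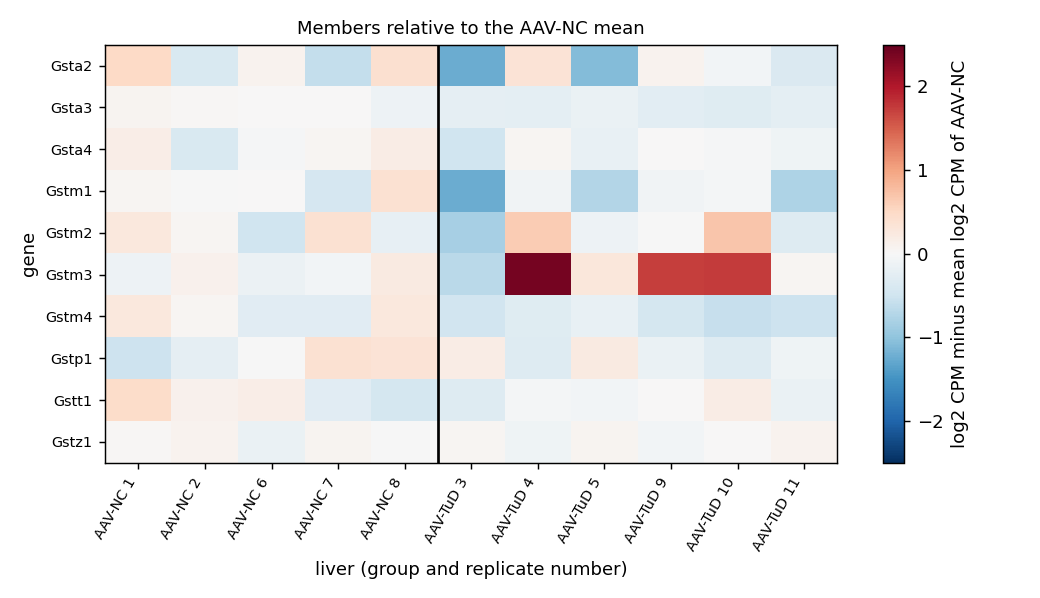
Log2 CPM of each member (rows) in each liver (columns, by group and replicate number) minus the mean log2 CPM of the AAV-NC livers, in red above and blue below that mean. *Gsta3* is pale blue across all 6 AAV-TuD livers, *Gstm3* is dark red in AAV-TuD 4, 9 and 10 (229, 143 and 146 CPM), and *Gstz1* stays near white in all 11 livers.

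*Gstp1* (ENSMUSG00000060803, chr19:4035407-4037985, minus strand), the pi class enzyme, known as more abundant in livers of male mice, had 1284, 1560, 1828, 2393 and 2333 CPM with AAV-NC. With AAV-TuD it had 1461 to 2148 CPM with a median of 1657, inside the AAV-NC range in all 6 livers. The log2 fold change was -0.11 (SE 0.16, interval -0.47 to 0.26, adjusted p = 0.732) and 0.12 with library size alone. Of 11 genes known as higher in male liver, 3 fell (*Hsd3b5*, *Slco1a1* and *Cyp2u1*) and 1 rose (*Mup20*), beside 4.33% and 7.24% of all genes tested. The median log2 fold change of the 11 was -0.34, with 8 below 0 and 3 above it.

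The *Gstp1* value is not that of 1 gene. The last 300 bases of *Gstp1* were 100% identical to a stretch of *Gstp2*, and matched the processed pseudogene *Gstp-ps* on chromosome 1 at 100% over 234 bases. Over all livers the table gave 197926 reads to *Gstp1*, 196140 to *Gstp2* and 175378 to *Gstp-ps*. Within each liver, *Gstp2* had 98.6 to 99.6 reads and *Gstp-ps* 84.8 to 93.7 reads per 100 *Gstp1* reads, whereas *Gstp3*, the third gene of the cluster, had 309 reads in all. The 3 sequences cannot be told apart in these counts, and how reads with several matches were counted was not given in the sources used here. *Gsta1* and *Gsta13*, at 99.7% identity, were a like pair, with 85.3 to 96.2 *Gsta13* reads per 100 *Gsta1* reads.

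**Figure D4:**
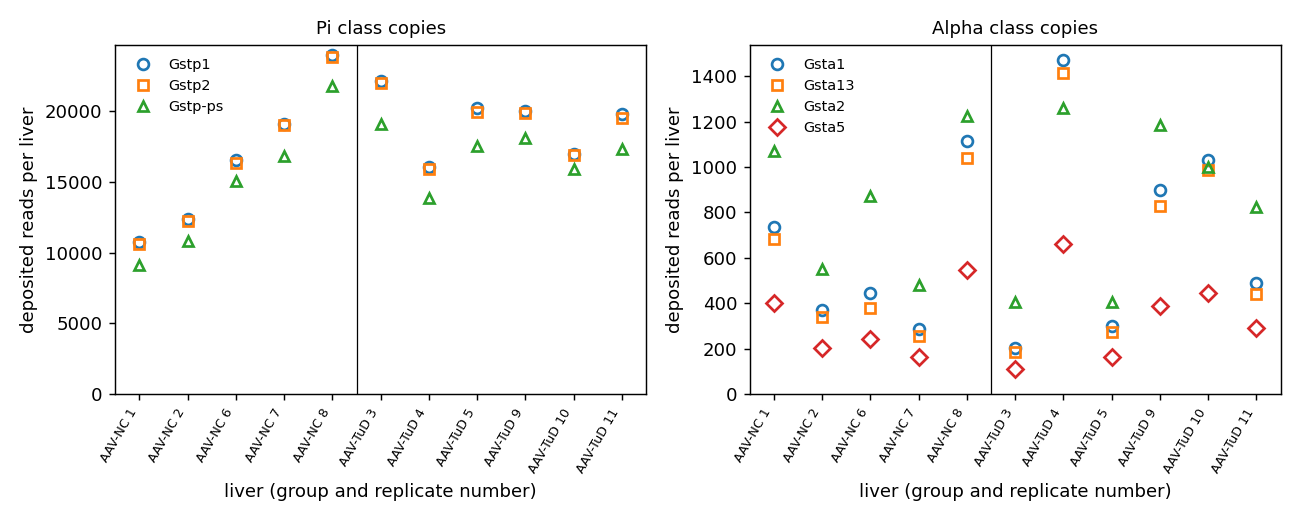
Deposited reads per liver of the pi class copies (left) and of the alpha class copies (right), with AAV-NC livers left of the line and AAV-TuD livers right of it. *Gstp1* and *Gstp2* points lie on each other in all 11 livers (98.6 to 99.6 *Gstp2* reads per 100 *Gstp1* reads), and *Gsta13* follows *Gsta1*.

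*Gstt1* (chr10:75783813-75798584, minus strand), the theta enzyme that acts on small halogenated compounds, had 129, 102, 106, 78.2 and 69.6 CPM with AAV-NC and 76.0 to 107 CPM with a median of 90.6 with AAV-TuD. All AAV-TuD livers lay within the AAV-NC range (log2 fold change -0.10, interval -0.40 to 0.21, adjusted p = 0.714, and 0.14 with library size alone). *Gstz1* (chr12:87147165-87164723, plus strand) is maleylacetoacetate isomerase, a step of tyrosine breakdown. It had 242, 254, 213, 249 and 235 CPM with AAV-NC, and 220 to 254 CPM with a median of 243 with AAV-TuD. The groups covered nearly the same range, and the log2 fold change of 0.01 had an interval from -0.15 to 0.16 (adjusted p = 0.974). *Pomt2*, on the opposite strand, overlaps *Gstz1* and had 422 reads over all livers. Of 5 genes of tyrosine breakdown, *Gstz1* among them, none was called by edgeR (median log2 fold change -0.16). At an unadjusted p under 0.05, 2 of the 5 were lower, and DESeq2 and limma-voom each called 1 lower.

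As shares of the reads on members, the pi class held 40.7% ± 7.25 with AAV-NC and 43.4% ± 7.70 with AAV-TuD, the alpha class 26.1% ± 3.44 and 24.9% ± 0.996, the mu class 25.8% ± 4.11 and 23.4% ± 7.79, the zeta class 5.26% ± 0.668 and 5.97% ± 0.557, and the theta class 2.17% ± 0.707 and 2.25% ± 0.233. The ranges overlapped in every class. The pi class share is that of *Gstp1* alone, whose reads cannot be told apart from those of *Gstp2* and *Gstp-ps*. All these shares, and the sum of all members, thus depend on how reads with several matches were counted. All members together had 4575 ± 454 CPM in AAV-NC livers and 4024 ± 191 in AAV-TuD livers, with overlap (4144 to 5255 against 3732 to 4246). With library size alone the means were 4227 and 4375 CPM, so the direction of this sum turned with the scale. Its log2 ratio was 0.05 on that scale, where the median of all genes was 0.23. With TMM the log2 ratio was -0.19 and the median of all genes -0.00.

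Of 23 further genes of the superfamily listed, 18 were tested. By edgeR 1 rose and none fell, beside 7.24% and 4.33% of all genes tested, and 17 were not called. The same counts came from DESeq2 and limma-voom (at an unadjusted p under 0.05 in edgeR, 2 were higher and 2 lower). The gene that rose was *Hpgds* (chr6:65117293-65144908, minus strand), the sigma class member, which makes prostaglandin D and is known from macrophages and mast cells. Its level was low, with 0.955, 1.51, 1.88, 1.502 and 1.65 CPM with AAV-NC and 2.65 to 7.11 CPM with a median of 4.42 with AAV-TuD. Every AAV-TuD liver was above every AAV-NC liver (log2 fold change 1.56, SE 0.28, edgeR adjusted p = 0.00304). The call held in each of the 20 other fits, with log2 fold changes from 1.38 to 1.83. Of 11 markers of Kupffer cells and macrophages, 8 rose too (median 0.89), 0 of them without overlap between the groups. Their summed level was 127 to 189 CPM with AAV-NC and 143 to 407 with AAV-TuD, with overlap. Markers of stellate cells and cholangiocytes, given below, rose as well. The part of these cell types in the *Hpgds* result was not tested. The membrane-bound *Mgst1*, the most abundant gene of this further list apart from the *Gstp* copies, had 870 ± 105 and 785 ± 106 CPM (log2 fold change -0.15, adjusted p = 0.423).

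Around the transferases, 46 genes of glutathione metabolism were tested in 3 lists, of which 4 rose and 4 fell (8 called, beside 11.6% of all genes), and with library size alone 5 rose and 1 fell. In the list for synthesis and recycling, 1 of 18 rose (*Ggct*) and 1 fell (*Lap3*), with a median of 0.14. *Ggct*, gamma-glutamylcyclotransferase, had 7.37 ± 0.896 and 9.89 ± 1.49 CPM (log2 fold change 0.42, SE 0.13, adjusted p = 0.0465), and *Lap3*, an aminopeptidase that can split cysteinylglycine, had 168 ± 8.67 and 137 ± 15.03 CPM (-0.29, SE 0.08, adjusted p = 0.0289). The subunits of glutamate-cysteine ligase, the rate-limiting enzyme of glutathione synthesis, did not pass the test: *Gclc* had a log2 fold change of -0.29 (adjusted p = 0.0686) and *Gclm* of -0.25 (adjusted p = 0.06).

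Among 13 tested enzymes that use glutathione for other reactions, 1 rose and 2 fell, with a median of -0.12. *Prdx6*, a peroxiredoxin that reduces phospholipid hydroperoxides, fell from 387 ± 21.02 to 303 ± 13.4 CPM without overlap (log2 fold change -0.35, SE 0.07, adjusted p = 0.00357). *Glo1*, glyoxalase 1, fell from 230 ± 15.05 to 188 ± 17.6 CPM (-0.29, SE 0.08, adjusted p = 0.022), and *Gpx3*, a secreted peroxidase at a low level here, rose from 2.64 ± 0.992 to 4.91 ± 1.36 CPM (0.92, SE 0.27, adjusted p = 0.0401). Among 15 genes of conjugate export and mercapturate formation, the transporters *Abcc1* (0.85, SE 0.25, adjusted p = 0.0394) and *Abcc5* (0.76, SE 0.22, adjusted p = 0.0394) rose and *Nat8f3*, of the N-acetyltransferase 8 family, fell by 1.47 on the log2 scale (SE 0.39, adjusted p = 0.0231), with a median of 0.06 for the list. The group means of all 3 were below 4 CPM. *Abcc1* with AAV-NC (0.504 to 1.07 CPM) and *Nat8f3* with AAV-TuD (0.531 to 1.31 CPM) lay near or below the filter. These genes were thus tested mainly through the group where they were high. The *Prdx6* call held in all 11 fits that left out 1 liver, and was lost with library size alone (-0.12, adjusted p = 0.685), as were those of *Lap3* (-0.07, adjusted p = 0.82) and *Glo1* (-0.06, adjusted p = 0.851). Relative to the median of all genes, *Prdx6*, *Lap3* and *Glo1* stood at -0.35, -0.30 and -0.29 there, beside -0.35, -0.29 and -0.29 with TMM. With 1 liver left out, the *Nat8f3* call held in 9 of 11 fits, that of *Glo1* in 7, that of *Lap3* in 6, those of *Gpx3*, *Abcc1* and *Abcc5* in 3 each and that of *Ggct* in 2. The number called in the 3 lists fell to 2 without AAV-TuD 4, to 3 without AAV-NC 7 or AAV-TuD 9, to 4 without AAV-NC 1, 2 or 8 or AAV-TuD 10, and to 5 without AAV-NC 6 or AAV-TuD 11.

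**Figure D5:**
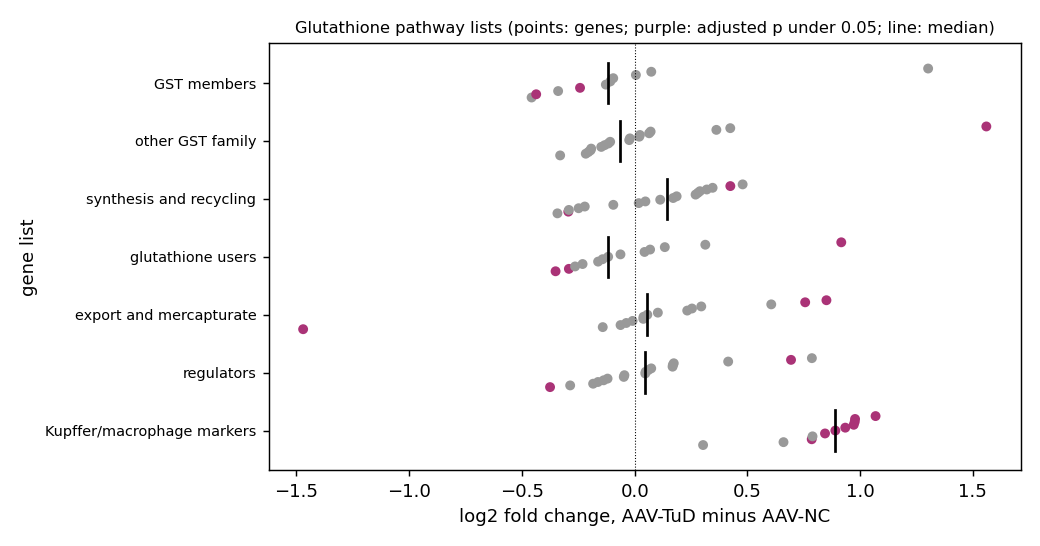
Log2 fold change (AAV-TuD minus AAV-NC) of each tested gene in 7 lists, with genes at an adjusted p under 0.05 in purple and a line at each list's median. The medians of the members (-0.12), glutathione users (-0.12), synthesis and recycling (0.14) and export (0.06) lie near 0, and that of the Kupffer and macrophage markers lies at 0.89.

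Of 18 regulators of these genes tested, 1 rose and 1 fell, beside 7.24% and 4.33% of all genes tested. *Nfe2l2*, which encodes NRF2, had 62.9 ± 8.20 CPM in AAV-NC livers and 102 ± 17.4 in AAV-TuD livers without overlap (log2 fold change 0.69, SE 0.12, adjusted p = 0.00211), and *Keap1*, its repressor protein, 26.2 ± 1.75 and 27.3 ± 3.70 CPM (0.06, adjusted p = 0.752). *Hnf4a*, a nuclear receptor that maintains hepatocyte transcription, had 154 ± 20.6 and 119 ± 10.7 CPM (-0.38, SE 0.09, adjusted p = 0.015). The *Nfe2l2* call held in each of the 20 other fits and that of *Hnf4a* in all 11 that left out 1 liver, but with library size alone *Hnf4a* was not called (-0.15, adjusted p = 0.595). Relative to the median of all genes, *Hnf4a* stood at -0.38 there and at -0.37 with TMM. Beside *Nfe2l2*, markers of other liver cell types moved too: 8 of 11 stellate cell markers rose (summed level 244 to 322 against 415 to 537 CPM). Of 6 tested cholangiocyte markers 5 rose (24.3 to 47.3 against 53.5 to 88.2 CPM). *Cldn4* and *Cftr* were absent from the table, and *Krt7*, *Cldn7* and *Tspan8* were below the filter. A gene could pass the filter through the AAV-TuD livers alone, so the cholangiocyte count depends in part on the filter. *Epcam*, 1 of those that rose, had 0.332 to 1.13 CPM with AAV-NC and 1.17 to 3.51 with AAV-TuD. None of 11 endothelial markers was called by edgeR, DESeq2 or limma-voom, and 0 had an unadjusted p under 0.05 in edgeR (401 to 432 against 392 to 448 CPM). The part of these cells in the *Nfe2l2* level was not tested. Of the zonation lists, 1 of 11 pericentral genes rose (*Oat*), and 1 of 10 periportal genes rose (*Cdh1*) and 1 fell (*Sdsl*). The median log2 fold changes were -0.00 and -0.11.

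A single form of the core of the antioxidant response element (TGACNNNGC, either strand) was the only motif searched. It was looked for in the RefSeq promoter windows of GRCm38.p6, which run from 250 bases before to 50 bases after each start. Of 32851 windows, 12.4% held it. Windows were found for 9 of the 10 members, and 1 of these 9, that of *Gsta3*, held this form. Other forms of the core were not searched, so the remaining windows, that of *Gstp1* among them, may hold another form. Members were counted here by gene, and some have more than 1 window, so the 12.4% of all windows is not a like share. The *Gsta3* window is printed as the only member window with a match to the form searched, on the plus strand and 5′ to 3′. The motif is in capitals and starts 121 bases before the transcript start. The match is one of letters, and no binding of NRF2 was measured.

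Gsta3 promoter, chr1:21240335-21240634: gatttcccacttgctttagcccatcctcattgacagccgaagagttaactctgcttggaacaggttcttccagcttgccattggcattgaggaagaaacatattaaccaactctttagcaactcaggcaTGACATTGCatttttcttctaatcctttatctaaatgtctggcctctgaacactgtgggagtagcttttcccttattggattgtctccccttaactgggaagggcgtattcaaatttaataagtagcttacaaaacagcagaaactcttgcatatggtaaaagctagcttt

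The genes most like a member were sought among 8371 genes whose mean was 50 reads or higher, by the correlation of log2 CPM after subtraction of each group's mean over the 11 livers, which share their library scaling. The values are a description. *Gsta3* was most like *Pex11a*, a peroxisome division factor (r = 0.93, rho = 0.84), *Mgll*, monoacylglycerol lipase (r = 0.91, rho = 0.87), and *Acnat1*, a peroxisomal acyltransferase (r = 0.91, rho = 0.90). *Gstm1* was most like *Mbl2*, a mannose-binding lectin (r = 0.97, rho = 0.94), and the near-identical pair *Gsta1* (r = 0.93, rho = 0.87) and *Gsta13* (r = 0.93, rho = 0.88). *Gstp1* was most like its copies *Gstp2* (r = 0.9999, rho = 0.99) and *Gstp-ps* (r = 0.99, rho = 0.98), and after them *C6*, a complement component (r = 0.95, rho = 0.95).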

How the data were processed

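RNA of 11 livers was made into QuantSeq 3′ mRNA libraries from 500 ng by the authors, who used BBDuk for trimming, STAR 2.5.3a for alignment (GRCm38) and Rsubread for counting (the authors' own test was DESeq2 1.38.3). The deposited values are counts of reads per gene, without normalization. Annotation, strand setting and treatment of multiply matching reads are not given in the sources used here. Totals were 8148531 to 12043959 reads, so a gene at 1 CPM has about as many reads as the filter asks for. The members and lists were chosen with earlier results of these data known.

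A gene was tested where 5 or more livers had over 10 reads, with edgeR 4.0.16 (quasi-likelihood test, TMM, Benjamini-Hochberg adjustment over 13334 genes, threshold 0.05) in R 4.3.3, without covariates. SE is the log2 fold change divided by the root of F, and 95% intervals use 9 degrees of freedom. CPM values are TMM-scaled, and log2 CPM uses a prior count of 2. Single values had a two-sided exact permutation test over all assignments of livers to groups. The fit was checked on simulated counts. GENCODE M21 matched 13658 of 13669 identifiers. Transcripts of other genes that match the 3′ ends were sought with blastn 2.17.0.

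Named genes are the members, called genes of the other superfamily, regulator and tyrosine lists, up to 4 called genes per direction in each glutathione list, and the 3 genes most like *Gsta3*, *Gstm1* and *Gstp1*. Outside this rule, chosen after their values were seen, are *Gstm7*, *Mgst1*, *Gclc*, *Gclm*, *Keap1*, *Gsto1*, the copies and the marker genes named. Alternatives were DESeq2 1.42.0, limma 3.58.1 (voom with quality weights), other scalings, filters and a fold threshold, a scale without the 22 Mup genes, and leaving out each liver. Leaving out the 3 livers with the largest Mup share was added after the data were seen.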

Additional observations from a re-analysis of the deposited data

Results flagged for a closer look

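Of 68 groups checked for a liver far from the others, in 34 quantities of the members, their relatives and class sums, 1 stood out, where about 3.4 would by chance. *Gsto1*, the omega class transferase, had 39.3 to 39.9 CPM in 5 AAV-TuD livers and 46.3 in AAV-TuD 10, so that the gap of that liver to its neighbour was 0.905 of the whole range on the log2 CPM scale, above the critical value of 0.625 for 6 samples. The gene did not pass the test between groups (log2 fold change -0.02, adjusted p = 0.876).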

How the results depend on the processing

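No paired analysis was possible because the groups share no replicate number. Of the 10 members, 2 were called, against 1 with library size alone (*Gstm3*, higher), 0 with a fold threshold of 0.5 on the log2 scale and 0 to 3 when 1 liver was left out. Over all genes 1543 were called, against 986 with the fold threshold, 1811 with DESeq2 and 1012 (without AAV-TuD 4) to 1829 when 1 liver was left out. Library size alone gave 1386 higher and 71 lower genes, beside 966 and 577 with TMM. Of the other superfamily genes 1 was called, against 2 with library size alone and 1 to 2 when 1 liver was left out (2 without AAV-NC 6). Of the glutathione lists 8 were called, against 4 with the fold threshold, 5 without the 3 livers with the largest Mup share and 2 to 9 when 1 liver was left out. The log2 ratio of the alpha class sum was -0.0065 and of the zeta class 0.24 with library size alone, beside -0.24 and 0.01 with TMM. Signs turned for members that were not called: with library size alone *Gsta4* (0.13), *Gstp1* (0.12) and *Gstt1* (0.14), for *Gstm2* without AAV-TuD 4 (-0.06), AAV-NC 6 (-0.03) or AAV-TuD 10 (-0.07; range over left-out livers -0.074 to 0.205), for *Gstt1* without AAV-NC 1 (range over left-out livers -0.194 to 0.0299), and for *Gstz1* with limma-voom (-0.0043), without the 3 livers (-0.0063) and when 1 liver was left out (-0.0338 to 0.0332). The cause was not tested beyond the size of the sample or gene set that each alternative leaves. Depth limits genes near 1 CPM, such as *Hpgds*, whose AAV-NC livers lie at 0.955 to 1.88 CPM.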
